A study of Homo sapiens with 72 samples.

Results

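The 10 genes described here, MCL1, BCL2L1, BCL2, BCL2A1, BAX, BAK1, BCL2L11, BBC3, PMAIP1 and BID, encode regulators of the mitochondrial pathway of apoptosis and belong to the BCL2 family. They were picked by name, not by a measured value, though with earlier results of these data known. They were found by Ensembl identifier among the 60371 genes listed for each well. All 10 passed the filter on low counts in each comparison with DMSO. The data are population RNA-seq of 72 wells of U2OS, a human osteosarcoma cell line, grown in 24-well plates and treated for 12 h. The control group was 18 wells with DMSO, the solvent. Each of 6 compounds was given at 100, 1000 and 10000 nM, with 3 wells per dose: triptolide (code JAA804, an inhibitor of transcription), homoharringtonine (LEE837, an inhibitor of translation), nilotinib (AMN107, a tyrosine kinase inhibitor), pyrazolanthrone (AML108, a JNK inhibitor), MK-2206 (LHD510, an AKT inhibitor) and miglitol (BGW675, a glucosidase inhibitor). The middle dose follows the labels. The study's results section gives the same dose for triptolide and homoharringtonine, while its methods give a smaller amount. All groups share the cell line, the medium and the time. Nothing in the labels says that the wells came from separate cultures, so p-values measure the spread between wells, which may be technical.

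Mitochondrial apoptosis is decided by binding among members of this family at the outer membrane of mitochondria. MCL1, BCL2L1 (its long product is BCL-XL), BCL2 and BCL2A1 are anti-apoptotic and hold the others in check. BAX and BAK1 are the effectors that form pores in the membrane and release cytochrome c. BCL2L11 (BIM), BBC3 (PUMA), PMAIP1 (NOXA) and BID carry only the BH3 domain of the family and act upstream, by occupying the anti-apoptotic proteins or by activating BAX and BAK1. MCL1 and PMAIP1 are known for short-lived products, and BCL2L1 and BAX for longer-lived ones. RNA-seq reads the mRNA alone, and neither protein nor half-life was measured here.

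Of the members, MCL1 lies at chr1:150560895-150579738 (minus strand) of GRCh38, BAX at chr19:48954815-48961798 (plus strand), BCL2A1 at chr15:79960892-79971196 (minus strand) and PMAIP1 at chr18:59899996-59904305 (plus strand), and all members are annotated as protein coding. A promoter entry of RefSeq (GRCh38.p14) matched 9 of the 10 members, and MCL1 had none. The bases upstream of the start were searched on both strands for the E-box CACGTG, the CRE core TGACGT, the GC box GGGCGG and the TATA box TATAAA. The windows of 3 members are shown because these genes responded in different ways, with the matched motifs in capitals:

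PMAIP1, chr18:59899746-59899995, plus strand: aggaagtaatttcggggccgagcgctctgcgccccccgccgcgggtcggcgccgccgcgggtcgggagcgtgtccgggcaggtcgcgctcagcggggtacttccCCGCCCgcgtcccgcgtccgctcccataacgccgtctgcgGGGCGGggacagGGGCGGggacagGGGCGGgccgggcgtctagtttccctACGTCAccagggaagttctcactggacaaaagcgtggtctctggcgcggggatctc

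BAX, chr19:48954625-48954814, plus strand: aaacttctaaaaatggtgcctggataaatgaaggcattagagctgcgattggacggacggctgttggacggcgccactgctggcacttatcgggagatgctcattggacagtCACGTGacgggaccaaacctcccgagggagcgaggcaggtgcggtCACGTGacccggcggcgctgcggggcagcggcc

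BCL2A1, chr15:79971197-79971446, minus strand: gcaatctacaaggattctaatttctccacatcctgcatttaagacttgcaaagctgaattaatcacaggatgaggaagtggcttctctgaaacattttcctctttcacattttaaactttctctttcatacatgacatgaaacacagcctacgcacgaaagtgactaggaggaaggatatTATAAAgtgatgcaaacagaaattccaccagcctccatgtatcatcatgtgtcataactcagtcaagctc

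The window of PMAIP1 held 4 GC boxes and 1 CRE core, that of BAX 4 E-boxes in its full 250 bases, of which the 190 before the annotated gene are printed, and that of BCL2A1 1 TATA box. Of 35097 RefSeq windows of the same length, 42.6% held a GC box, 7.1% the CRE core, 6.34% the E-box and 10.7% the TATA box. A count of 4 or more was reached by 0.0142% of windows for the E-box and 7.62% for the GC box. GC content was 72.8% for PMAIP1, 62.8% for BAX and 38.8% for BCL2A1. A match describes letters and not a bound site.

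The median well held 38.4 mil expected counts, and 3 libraries were under 10 mil: triptolide 100 nM replicate 2 with 0.071 mil, DMSO replicate 10 with 0.46 mil and triptolide 1000 nM replicate 1 with 9.63 mil. DMSO replicate 10 was the highest of the DMSO wells for BAX, BID, MCL1, PMAIP1 and BCL2. Among markers of the line's lineage VIM (1842 TPM in DMSO) and COL1A1 (456 TPM) were high and COL1A2 was near absent (0.089 TPM), while of the epithelial markers the keratin KRT8 stood at 259 TPM, EPCAM at 2.35 TPM and CDH1 at 0.442 TPM, and the blood and liver markers PTPRC, CD3E and ALB lay at 0.194 TPM or less. In bulk RNA, fewer cells and less RNA per cell cannot be told apart, and every value below is relative to the other RNA of its library.

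In DMSO an effector led the family. TPM, which is scaled to transcript length and so allows levels of different genes to be compared, was 240.2 ± 32.7 (SD, n = 18) for BAX, 167 ± 11.1 for BCL2L1, 92.4 ± 20.1 for MCL1, 59.5 ± 17.8 for BID, 58.8 ± 4.8 for BAK1, 23.2 ± 7.53 for PMAIP1, 11.8 ± 2.34 for BBC3, 11.6 ± 1.43 for BCL2L11, 8.28 ± 5.72 for BCL2A1 and 5.73 ± 2.85 for BCL2. BAX exceeded BCL2L1, BCL2L1 exceeded MCL1, MCL1 exceeded BID, BAK1 exceeded PMAIP1 and PMAIP1 exceeded BBC3 in 18 of 18 wells. The other neighbours were not separated: BID was above BAK1 in 4 wells, BBC3 above BCL2L11 in 10, BCL2L11 above BCL2A1 in 13 and BCL2A1 above BCL2 in 11. BAX held 35.4% of the family's summed TPM, BCL2L1 24.7%, MCL1 13.6% and BCL2, the member that named the family, 0.821%. BCL2A1 was the least even, from 1.55 to 22.4 TPM over the DMSO wells, against 149 to 184 TPM for BCL2L1.

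**Figure D1:**
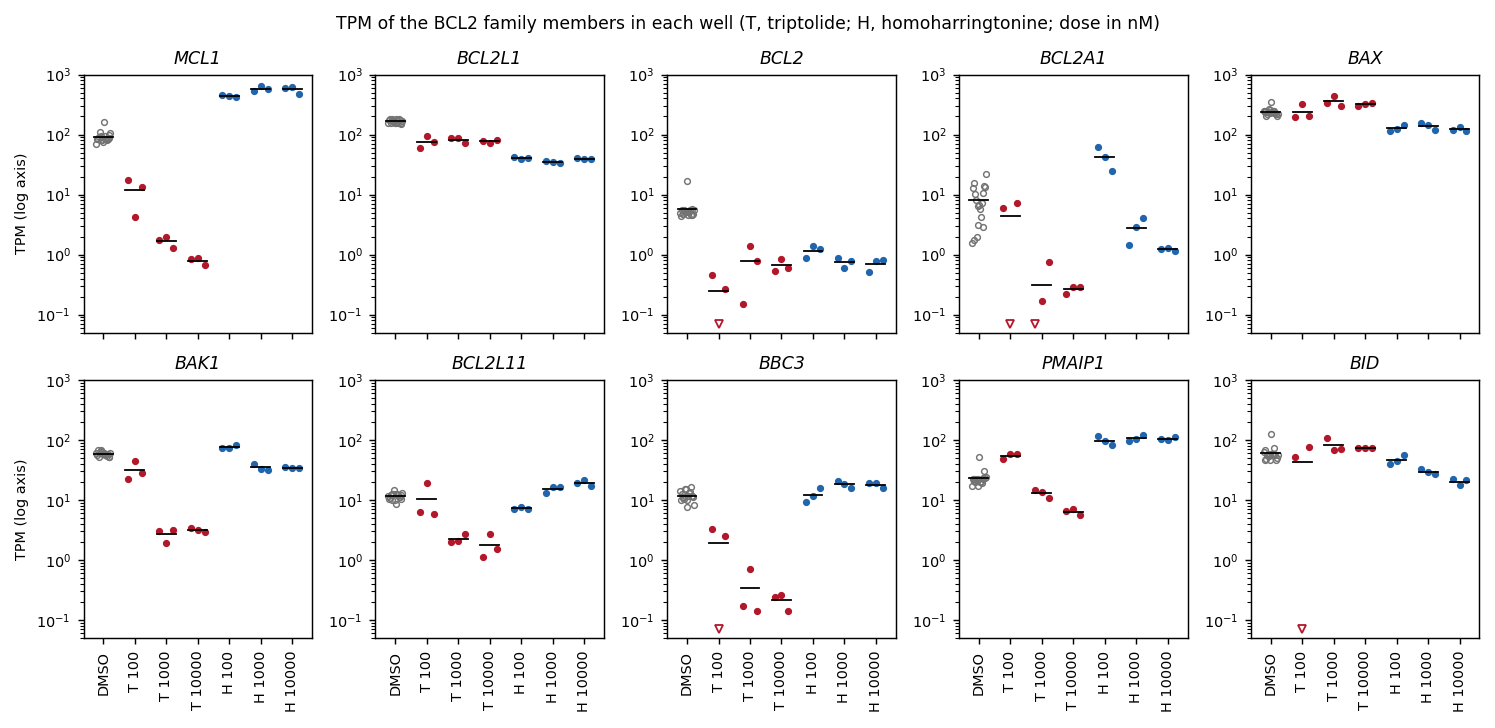
TPM of each member (log axis) in every well of DMSO, triptolide and homoharringtonine at 3 doses, with lines for group means and open triangles at the bottom for wells listed at 0. MCL1 lies at 17.4 TPM or less in the triptolide wells and at 419 TPM or more in the homoharringtonine wells, while BAX stays between 113 and 446 TPM.

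MCL1, which binds BAK1, BCL2L11 and PMAIP1, had the widest range of the family, from a group mean of 0.79 TPM to 581 TPM. With triptolide its wells read 17.4, 4.28 and 13.6 TPM at 100 nM, 1.74, 1.94 and 1.29 TPM at 1000 nM and 0.83, 0.87 and 0.67 TPM at 10000 nM. With homoharringtonine they read 461, 441 and 419 TPM, 536, 635 and 572 TPM and 592, 629.52 and 481 TPM. The DMSO wells ran from 70.4 to 162 TPM, so each triptolide well was below and each homoharringtonine well above all of them. Differences were tested on counts with edgeR's quasi-likelihood test (TMM scaling, Benjamini-Hochberg adjustment over all genes tested), and their log2(Fold Change) need not equal a ratio of TPM. MCL1 fell with triptolide, with a log2(Fold Change) of -2.08 ± 0.20, -5.01 ± 0.21 and -6.03 ± 0.22 (± SE) in order of dose, with an adjusted p of 1.3e-17 at 10000 nM. It rose with homoharringtonine by 2.48 ± 0.11, 2.57 ± 0.11 and 2.44 ± 0.12, with an adjusted p of 3.9e-15 at 10000 nM. These directions held under each scaling tried. At 10000 nM triptolide left 73, 75 and 57 MCL1 counts per well, and the shallow library at 100 nM held 1.

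BCL2L1 moved less and the same way with both inhibitors. Its triptolide wells read 58.9, 93.4 and 75.9 TPM at 100 nM, 86.9, 87 and 72.7 TPM at 1000 nM and 78.3, 73 and 79.7 TPM at 10000 nM, and its homoharringtonine wells lay between 33 and 42 TPM. All were below the lowest DMSO well at 149 TPM. On counts BCL2L1 fell with triptolide, at -0.74 ± 0.12, -0.35 ± 0.10 and -0.32 ± 0.09 on the log2 scale. At 1000 and 10000 nM that size depended on the scaling: DESeq2 gave -0.16 (adjusted p = 0.25) and -0.15 (adjusted p = 0.21), and the mitochondrially encoded mRNAs as a reference gave -2.80 and -3.12. With homoharringtonine it fell as well, at -1.86 ± 0.11, -2.24 ± 0.12 and -2.23 ± 0.10, with an adjusted p of 1.8e-15 at 10000 nM.

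BCL2 was low from the start and fell in all 6 of these groups. Triptolide wells read 0.46, 0 and 0.27 TPM at 100 nM, 0.15, 1.38 and 0.78 TPM at 1000 nM and 0.53, 0.84 and 0.61 TPM at 10000 nM, the 0 being the shallow library. Homoharringtonine wells lay between 0.52 and 1.37 TPM, and all wells of both compounds were below the DMSO minimum of 4.45 TPM. The log2(Fold Change) was -2.65 ± 0.21, -2.63 ± 0.24 and -2.63 ± 0.17 with triptolide and -2.12 ± 0.16, -2.83 ± 0.17 and -2.89 ± 0.19 with homoharringtonine.

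BCL2A1, an anti-apoptotic target of NF-kB, changed direction with dose. With homoharringtonine it read 61.3, 41.7 and 25.1 TPM at 100 nM, above the 18 DMSO wells, then 1.46, 2.85 and 4.08 TPM at 1000 nM and 1.26, 1.29 and 1.13 TPM at 10000 nM. It rose by 2.64 ± 0.46 on the log2 scale at 100 nM (adjusted p = 2.0e-05) and fell by 1.47 ± 0.64 at 1000 nM (adjusted p = 0.047) and by 2.86 ± 0.73 at 10000 nM (adjusted p = 0.0012). The call at 1000 nM was lost on leaving out any of its 3 wells, with values from -1.77 to -1.20. Triptolide at 100 nM gave 5.88, 0 and 7.16 TPM, the 0 being the shallow library. BCL2A1 was not called there under TMM (0.15 ± 0.67, adjusted p = 0.87), but was lower with the mitochondrial reference (-1.38, adjusted p = 0.035) and higher with the replicate block, which keeps DMSO replicates 1 to 3 alone (1.97, adjusted p = 7.0e-06). At 10000 nM it left 5, 6 and 7 counts per well, a log2(Fold Change) of -4.28 ± 0.89.

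BAX, the main effector by level, parted between the compounds. Triptolide wells read 196, 325 and 205 TPM at 100 nM, 333, 446 and 301 TPM at 1000 nM and 298, 318 and 337 TPM at 10000 nM, against 201 to 352 TPM in DMSO. Without the shallow DMSO replicate 10 the DMSO wells reached 267 TPM, below every triptolide well at 1000 and 10000 nM. Homoharringtonine wells lay between 113 and 158 TPM, all below the DMSO wells. With triptolide at 1000 and 10000 nM BAX was higher under TMM by 1.06 ± 0.12 and 1.06 ± 0.12 on the log2 scale and by 0.61 and 0.52 with library sizes alone, but lower with the mitochondrially encoded mRNAs as reference (-1.40 and -1.75). At 100 nM the value was 0.33 ± 0.15 (adjusted p = 0.06), and 0.33 (adjusted p = 0.031) without the libraries under 10 mil. It was lower at that dose with at least 10 counts in every well (-0.36, adjusted p = 0.035) and with the mitochondrial reference (-1.24, adjusted p = 0.0026). With homoharringtonine BAX fell, at -0.72 ± 0.14, -0.77 ± 0.15 and -1.14 ± 0.14.

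Mitochondrially encoded mRNAs, which a separate polymerase makes, took 1.007 to 1.151% of counts at 10000 nM of triptolide and 0.138 to 0.367% in DMSO. For triptolide, using the 13 of them as reference shifted the median of all genes by -1.65, -2.47 and -2.75 on the log2 scale in order of dose, and library sizes alone shifted it by -0.34, -0.46 and -0.53. For homoharringtonine the mitochondrial shifts were -0.09, -0.07 and -0.27. For nilotinib they were 0.45, 0.09 and -0.69, and for miglitol, where 0% of genes were called, 0.36, 0.33 and -0.48. The mitochondrial reference thus moved without called changes in other genes, and what a call lost with it reflects was not tested. With that reference all 10 members were lower than in DMSO at 1000 and 10000 nM of triptolide.

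**Figure D2:**
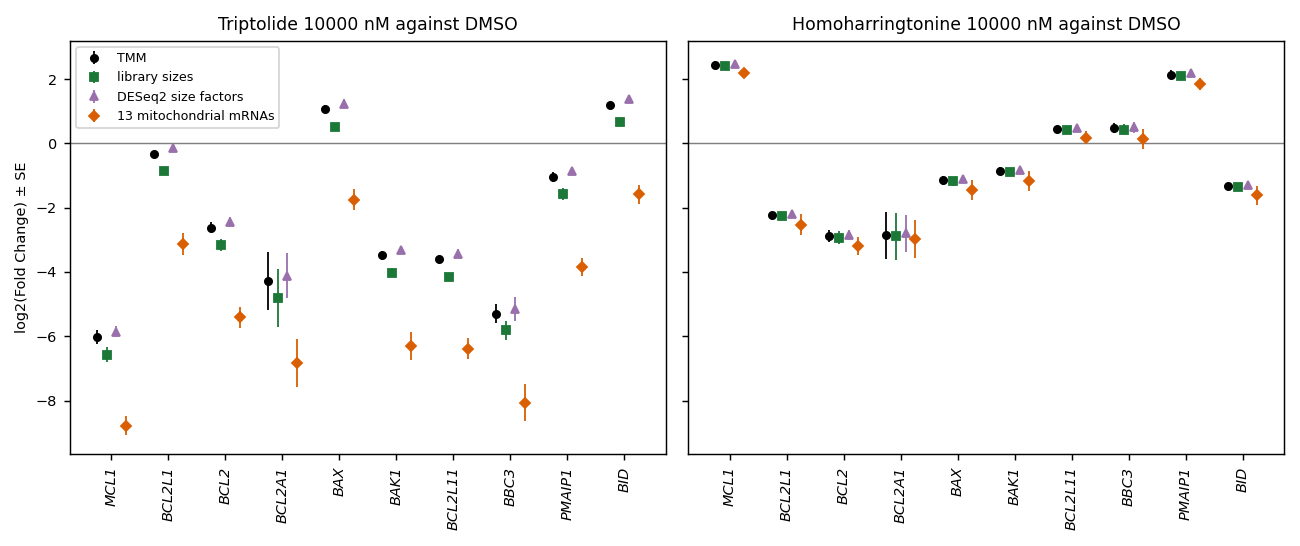
The log2(Fold Change) against DMSO (points, with SE bars) of each member at 10000 nM of triptolide and of homoharringtonine under 4 scalings. With triptolide BAX and BID lie above 0 under TMM, library sizes and DESeq2 and below 0 (-1.75 and -1.58) with the mitochondrial mRNAs, while with homoharringtonine the scalings lie close together.

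BAK1, the other effector and a partner of MCL1, fell with triptolide. Its wells read 22.1, 44.9 and 28.5 TPM at 100 nM, 3.08, 1.88 and 3.11 TPM at 1000 nM and 3.38, 3.13 and 2.96 TPM at 10000 nM, all below the DMSO minimum of 51 TPM. The log2(Fold Change) was -0.62 ± 0.14, -3.77 ± 0.17 and -3.48 ± 0.14, and the call at 100 nM was lost without replicate 1 (-0.44, adjusted p = 0.06). With homoharringtonine BAK1 read 72.4, 74.5 and 83 TPM at 100 nM, above all DMSO wells, and between 31.6 and 40.02 TPM at the higher doses, below all of them. It rose by 0.62 ± 0.11 at 100 nM and fell at 1000 and 10000 nM (-0.67 ± 0.13 and -0.85 ± 0.11). With the mitochondrial reference the values at 100 and 1000 nM did not pass (0.50, adjusted p = 0.13, and -0.72, adjusted p = 0.07).

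Among the BH3-only genes PMAIP1, a ligand of MCL1, changed with triptolide in a direction that depended on the dose under TMM. It read 47.9, 57.8 and 57.2 TPM at 100 nM, 14.7, 13.7 and 10.9 TPM at 1000 nM and 6.56, 6.97 and 5.61 TPM at 10000 nM, against 16.9 to 51 TPM in DMSO. Without the shallow DMSO replicate 10 the DMSO wells reached 30.4 TPM, below the 3 wells at 100 nM. Under TMM it was higher by 1.77 ± 0.15 at 100 nM (adjusted p = 6.2e-10), where the mitochondrial reference gave no call (0.15, adjusted p = 0.57), and it fell by 1.05 ± 0.16 at 10000 nM. At 1000 nM the value was -0.16 ± 0.17 (adjusted p = 0.39) under TMM, 0.04 with DESeq2, -0.61, adjusted p = 0.006, with library sizes alone, and -2.59 with the mitochondrial reference. With homoharringtonine the 9 wells lay between 81.2 and 122 TPM, above every DMSO well. PMAIP1 rose there by 2.38 ± 0.13, 2.34 ± 0.13 and 2.14 ± 0.13, and this direction held under each scaling.

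BBC3, a target of p53, fell to under 1 TPM with triptolide at the higher doses. It read 3.23, 0 and 2.48 TPM at 100 nM, 0.17, 0.71 and 0.14 TPM at 1000 nM and 0.24, 0.26 and 0.14 TPM at 10000 nM, the last from 8, 9 and 5 counts. The 0 was the shallow library. BBC3 fell at each dose, with a log2(Fold Change) of -1.43 ± 0.26, -4.88 ± 0.40 and -5.30 ± 0.30. With homoharringtonine its wells lay between 9.28 and 20.9 TPM and overlapped the DMSO range of 7.47 to 16.3 TPM. It was called higher at 1000 nM (0.70 ± 0.18) and 10000 nM (0.47 ± 0.16, adjusted p = 0.013), but with the mitochondrial reference neither passed (0.65, adjusted p = 0.1, and 0.15, adjusted p = 0.69), and the call at 10000 nM was lost without replicate 1 (0.41, adjusted p = 0.077) or replicate 2 (0.40, adjusted p = 0.079).

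BCL2L11, which binds all the anti-apoptotic members, read 1.98, 2.06 and 2.71 TPM with triptolide at 1000 nM and 1.11, 2.71 and 1.52 TPM at 10000 nM, against 8.67 to 14.5 TPM in DMSO. It fell, at -3.18 ± 0.16 and -3.61 ± 0.11 on the log2 scale. At 100 nM it read 18.8 TPM in the shallow library and 5.89 and 6.24 TPM in the other wells. TMM gave no call there (-0.17 ± 0.11, adjusted p = 0.19). At that dose BCL2L11 was lower with library sizes alone (-0.50, adjusted p = 0.0004) and with the mitochondrial reference (-1.85, adjusted p = 2.5e-06). With homoharringtonine its wells read 7.12, 7.52 and 7.04 TPM at 100 nM, below all DMSO wells, 13.1, 16.5 and 16.4 TPM at 1000 nM and 19.2, 21.4 and 16.8 TPM at 10000 nM, above all of them. On counts the values were small: -0.26 ± 0.09, 0.25 ± 0.08 and 0.46 ± 0.07, each past the threshold under TMM. With the mitochondrial reference none of the 3 passed (adjusted p = 0.18, 0.57 and 0.46), and the calls at 100 and 1000 nM were lost without replicate 2 (-0.21, adjusted p = 0.1, and 0.21, adjusted p = 0.06).

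BID, which links death receptors to mitochondria, was called higher with triptolide and lower with homoharringtonine at 1000 and 10000 nM, as BAX was. Triptolide wells read 51.6, 0 and 74.9 TPM at 100 nM, 107, 68.8 and 69.7 TPM at 1000 nM and 73, 73.5 and 74.5 TPM at 10000 nM, against 45.7 to 125 TPM in DMSO. The 0 was the shallow triptolide library. The highest DMSO well was the shallow replicate 10, and without it the DMSO wells reached 73.8 TPM. On counts BID was higher under TMM by 0.98 ± 0.10 and 1.21 ± 0.09 at 1000 and 10000 nM, and lower with the mitochondrial reference (-1.51 and -1.58). With homoharringtonine it read 40.3, 43.6 and 56.1 TPM at 100 nM and between 17.4 and 33 TPM at the higher doses, where all wells were below DMSO. It fell there, at -0.78 ± 0.11 and -1.32 ± 0.10.

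Under TMM 1 member rose and 5 fell with triptolide at 100 nM, at an adjusted p under 0.05, where 24.5% of all genes tested rose and 32.3% fell. The counts were 2 and 7 at 1000 nM (28.8% and 38.6% of all genes) and 2 and 8 at 10000 nM (32.2% and 39.7%). With homoharringtonine 4 rose and 4 fell at 100 nM (31.1% and 32.3%), 4 and 6 at 1000 nM (35% and 33.4%), and 4 and 6 at 10000 nM (36.7% and 37.2%). With a log2(Fold Change) beyond 1 as well, 2 members rose and 7 fell at 10000 nM of triptolide (16.2% and 30.2% of all genes), and 2 rose and 5 fell at 10000 nM of homoharringtonine (23.6% and 23.4%). The median log2(Fold Change) of the members at 10000 nM was -3.06 with triptolide, beside -0.17 over all genes, and -0.99 with homoharringtonine, beside -0.05. All comparisons with DMSO share the same 18 wells.

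**Figure D3:**
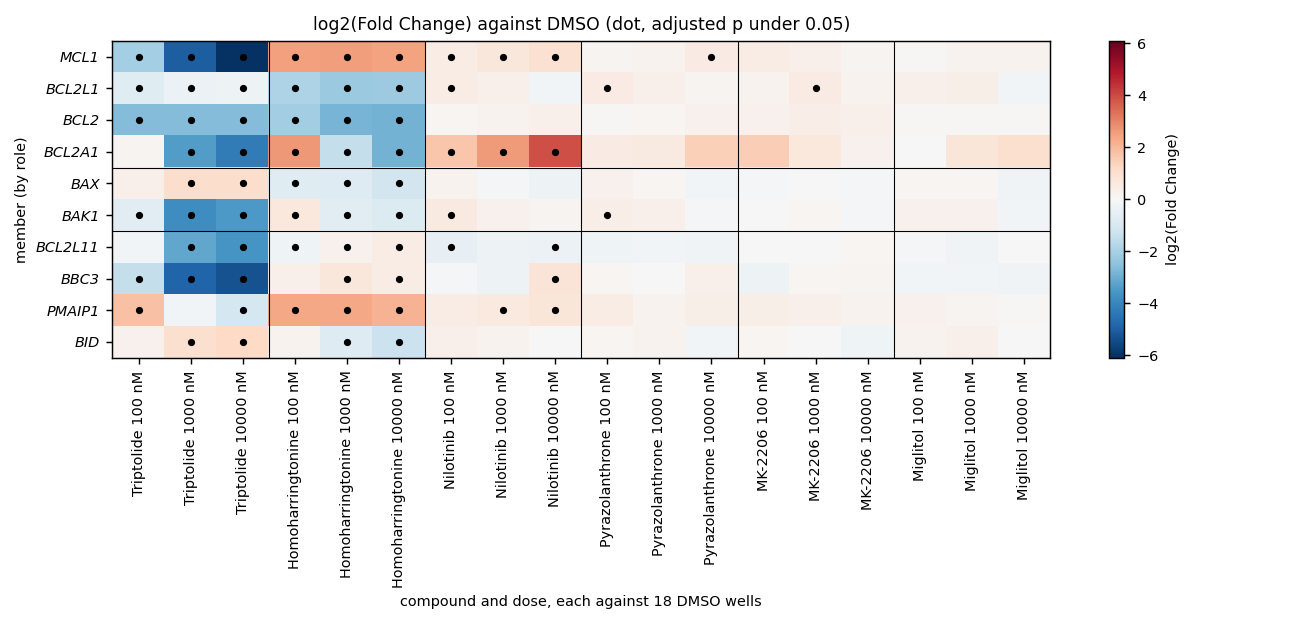
The log2(Fold Change) of each member (rows, by role) in the 18 compound and dose groups (columns) against DMSO, with a dot where the adjusted p was under 0.05. Calls concentrate in triptolide and homoharringtonine, BCL2A1 reaches 3.93 with nilotinib, and miglitol has no dot.

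The transcription and the translation inhibitor were then compared with each other at matched doses, without DMSO wells. MCL1 was lower with triptolide, at -4.48 ± 0.23, -7.59 ± 0.22 and -8.39 ± 0.10 on the log2 scale in order of dose, a 335-fold difference at 10000 nM (adjusted p = 5.0e-12). PMAIP1 was lower too, at -0.55 ± 0.19, -2.52 ± 0.19 and -3.09 ± 0.09, and its call at 100 nM was lost without triptolide replicate 1 (-0.48, adjusted p = 0.1). At 10000 nM the values were -5.67 ± 0.22 for BBC3, -3.98 ± 0.12 for BCL2L11, -2.55 ± 0.09 for BAK1 and -1.35 ± 0.31 for BCL2A1. At the same dose BID (2.62 ± 0.08), BAX (2.28 ± 0.09) and BCL2L1 (2.00 ± 0.08) were higher with triptolide under TMM, whereas the mitochondrial reference gave 0.03, -0.30 and -0.59. BCL2 gave no call at any dose under TMM, with 0.34 ± 0.24, adjusted p = 0.19, at 10000 nM and an approximate 95% interval of -0.13 to 0.81, and was lower with the mitochondrial reference (-2.22). In all, 2 members were higher and 5 lower with triptolide at 100 nM (29.7% and 35.8% of all genes), 3 and 6 at 1000 nM (27.9% and 38.9%), and 3 and 6 at 10000 nM (41.4% and 47%).

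Dose dependence was tested as a slope over the 9 wells of each compound. With triptolide 6 members had a falling slope per 10-fold dose, as did 17.8% of all genes: BCL2A1 (-2.29 ± 0.38 on the log2 scale), MCL1 (-1.98 ± 0.19), BBC3 (-1.97 ± 0.35), BCL2L11 (-1.73 ± 0.24), BAK1 (-1.45 ± 0.27) and PMAIP1 (-1.44 ± 0.13). A slope does not test single dose steps, and BAK1 averaged 2.69 TPM at 1000 nM and 3.16 TPM at 10000 nM. The rising call was BID (0.42 ± 0.14, adjusted p = 0.045, beside 6.93% of all genes), which was -0.06 with the mitochondrial reference and was lost without any single well of 10000 nM or without replicate 1 or 3 of 100 nM, with values from 0.36 to 0.48. BCL2 (-0.02 ± 0.24, adjusted p = 0.96), BAX (0.29 ± 0.11, adjusted p = 0.084) and BCL2L1 (0.15 ± 0.09, adjusted p = 0.25) did not pass under TMM, and BCL2L1 was -0.35 with the mitochondrial reference. With homoharringtonine 4 members fell with dose (22.9% of all genes): BCL2A1 (-2.88 ± 0.30), BID (-0.77 ± 0.08), BAK1 (-0.75 ± 0.12) and BCL2 (-0.40 ± 0.13), the last being lost without replicate 1 at 10000 nM (-0.32, adjusted p = 0.097) or replicate 2 (-0.30, adjusted p = 0.12) or 3 (-0.40, adjusted p = 0.064) at 100 nM. BCL2L11 rose by 0.35 ± 0.07 (21.1% of all genes), a call not made with the mitochondrial reference (0.27, adjusted p = 0.14). MCL1 (-0.03 ± 0.05, adjusted p = 0.66) and PMAIP1 (-0.13 ± 0.07, adjusted p = 0.12) gave no trend past the threshold.

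Ratios of members within a well do not depend on how libraries are scaled. MCL1 over BCL2L1 was 0.554 ± 0.112 TPM per TPM in DMSO (n = 18), 0.173 ± 0.125, 0.02 ± 0.0023 and 0.0103 ± 0.0018 with triptolide (n = 3 per dose), and 10.9 ± 0.581, 16.8 ± 2.06 and 14.2 ± 1.9 with homoharringtonine. No triptolide or homoharringtonine well fell in the DMSO range of 0.441 to 0.902. Nilotinib wells at 10000 nM read 1.23, 0.996 and 0.913, above that range, and those at its lower doses lay inside it, from 0.549 to 0.813. Single wells of miglitol at 100 and 1000 nM lay just below it, at 0.416 and 0.4245. MCL1 made up 13.6% of the family's TPM in DMSO, 61% at 10000 nM of homoharringtonine and 0.165% at 10000 nM of triptolide. BAX over BAK1 was 4.09 ± 0.49 in DMSO, 7.76 ± 0.933, 147 ± 78 and 101 ± 12.9 with triptolide, and 1.66 ± 0.0669, 4.01 ± 0.326 and 3.59 ± 0.338 with homoharringtonine. All nilotinib wells lay between 2.71 and 3.32, below the DMSO minimum of 3.6, as did some wells of pyrazolanthrone, MK-2206 and miglitol. PMAIP1 over MCL1 was 0.25 ± 0.0348 in DMSO and 0.187 at 10000 nM of homoharringtonine, and 6.82 ± 5.84, 7.96 ± 0.797 and 8.1 ± 0.246 with triptolide. The first of these rests on the shallow replicate 2, at 13.5 from 1 MCL1 count, beside 2.76 and 4.2 in the other wells. The mRNA of the BH3-only ligand exceeded that of MCL1 in each of the 9 triptolide wells.

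**Figure D4:**
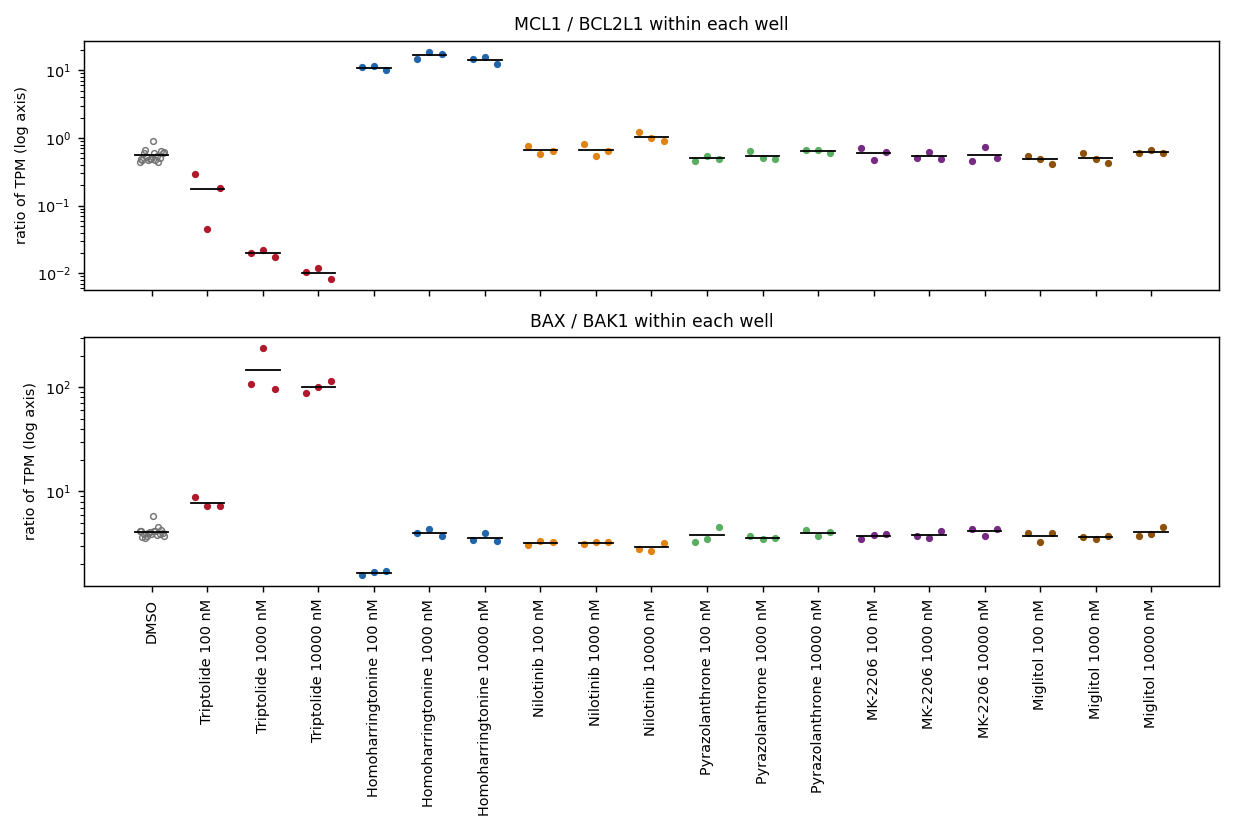
Ratio of MCL1 to BCL2L1 TPM and of BAX to BAK1 TPM (log axes) in every well of the 19 groups, with lines for group means. The DMSO wells lie within 0.441 to 0.902 and 3.6 to 5.78, and the first ratio averages 0.0103 at 10000 nM of triptolide and 14.2 at 10000 nM of homoharringtonine.

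RSEM also gives the mean length of a gene's transcripts weighted by their estimated abundance, which moves when other isoforms are counted. It was tested with limma on the log2 scale in wells of at least 10 mil counts, for genes with at least 30 counts in each, which left 6 to 9 members per comparison. BCL2L11 shortened with triptolide at 10000 nM by 1.35 ± 0.15 (adjusted p = 1.8e-06), from 2812 ± 306 bases in DMSO to a mean of 1159 ± 464 bases, and was the member called there, where 11% of all genes were shorter. That estimate rests on 47, 46 and 45 counts per well. With the replicate number as a blocking term, which also keeps DMSO replicates 1 to 3 alone, the call was not made (adjusted p = 0.19). At 1000 nM, where only 2 triptolide wells had at least 10 mil counts, BAX (-0.17 ± 0.04) and PMAIP1 (-0.07 ± 0.02) were shorter (10% of all genes). With homoharringtonine at 10000 nM BCL2L1 was shorter (-0.09 ± 0.02, beside 12.7% of all genes). With the shallow libraries kept, these 3 read -0.01, 0.00 and 0.02 and were not called. Without replicate 2, which leaves replicate 3 as the only triptolide well, BAX and PMAIP1 read -0.04 and -0.05.

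**Figure D5:**
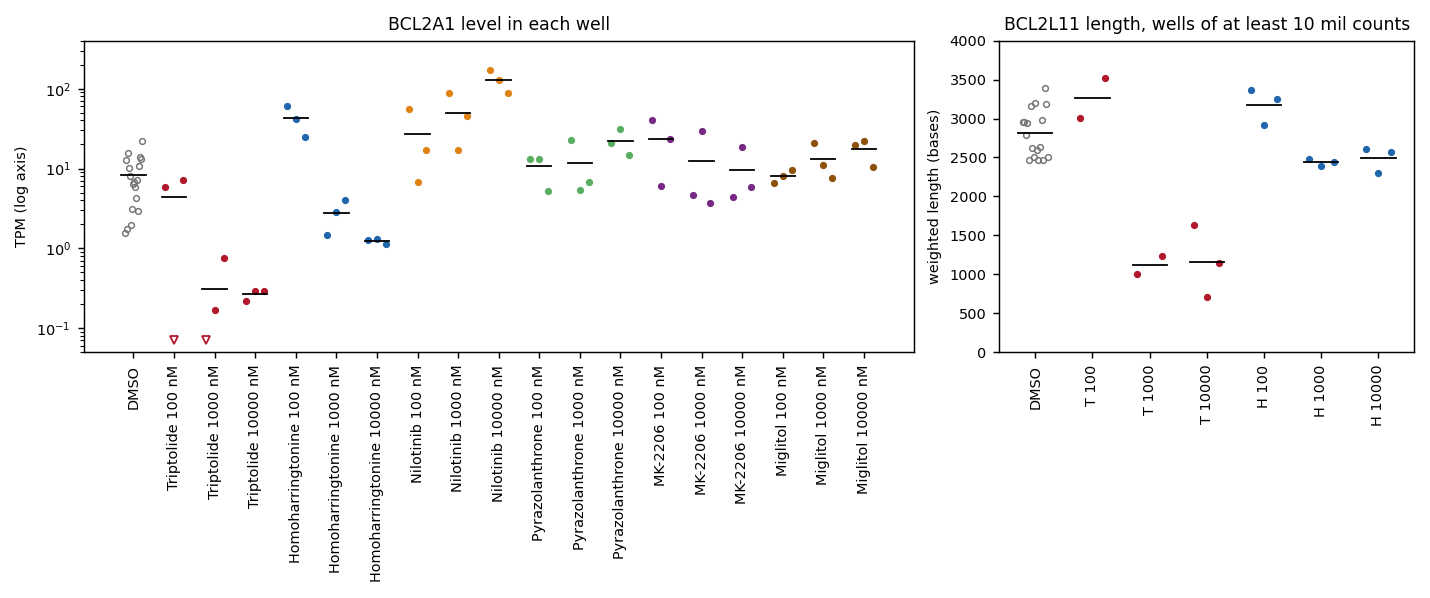
BCL2A1 TPM (log axis) in every well of the 19 groups, with open triangles for wells listed at 0, and the weighted length of BCL2L11 transcripts in bases in DMSO, triptolide and homoharringtonine wells of at least 10 mil counts. BCL2A1 reaches 171 TPM with nilotinib at 10000 nM, and BCL2L11 averages 1159 ± 464 bases with triptolide at 10000 nM.

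Of the other 4 compounds, nilotinib gave the most calls, and BCL2A1 led them. Its wells read 56.1, 6.84 and 17.2 TPM at 100 nM, 87.4, 17 and 45.9 TPM at 1000 nM and 171, 130.44 and 87.5 TPM at 10000 nM, where all 3 were above the DMSO wells. BCL2A1 rose by 1.71 ± 0.54, 2.60 ± 0.48 and 3.93 ± 0.43 on the log2 scale, a 15.2-fold rise at 10000 nM (adjusted p = 3.8e-07). Both lower doses lost their call without replicate 1 (0.68, adjusted p = 0.45, and 2.01, adjusted p = 0.092). The call at 100 nM was also lost without replicate 3 (1.94, adjusted p = 0.11), with library sizes alone (adjusted p = 0.055), with no filter on low counts (adjusted p = 0.055) and with DESeq2 (adjusted p = 0.06). MCL1 read 182, 152 and 147 TPM at 10000 nM and rose by 0.47 ± 0.14, 0.69 ± 0.14 and 0.92 ± 0.13, PMAIP1 rose by 0.60 ± 0.15 and 0.76 ± 0.14 at 1000 and 10000 nM, and BBC3 by 0.77 ± 0.16 at 10000 nM, with wells of 19.97, 20.3 and 21.5 TPM, above all DMSO wells. With the mitochondrial reference these values at 10000 nM did not pass: MCL1 0.26, PMAIP1 0.06 and BBC3 0.02. The call of PMAIP1 at 1000 nM was lost without any of its 3 wells (adjusted p from 0.053 to 0.29), that of MCL1 at 100 nM without replicate 2 or 3 (adjusted p = 0.052 and 0.11) or with library sizes alone (adjusted p = 0.095), and that of MCL1 at 1000 nM without replicate 1 (adjusted p = 0.17). BCL2L11 fell by 0.49 ± 0.08 at 100 nM and 0.38 ± 0.08 at 10000 nM, the first reading -0.03, adjusted p = 0.94, with the mitochondrial reference. BAK1 (0.54 ± 0.11) and BCL2L1 (0.44 ± 0.10) were called higher at 100 nM alone of the 3 doses, and both calls were lost without replicate 2 (adjusted p = 0.1 and 0.19) or replicate 3 (adjusted p = 0.062 and 0.082). In all 4 members rose and 1 fell at 100 nM (5.5% and 3.58% of all genes), 3 rose at 1000 nM (2.51%), and 4 rose and 1 fell at 10000 nM (7.97% and 6.39%).

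Pyrazolanthrone, MK-2206 and miglitol gave few calls. With pyrazolanthrone BCL2L1 (0.48 ± 0.09) and BAK1 (0.40 ± 0.10) were higher at 100 nM, where 3.2% of all genes rose, and MCL1 (0.49 ± 0.13) at 10000 nM, where 3.35% did. At 1000 nM no member and 0% of genes were called. The BCL2L1 and BAK1 calls were lost without replicate 2 (0.45, adjusted p = 0.095, and 0.35, adjusted p = 0.23) or replicate 3 (adjusted p = 0.098 and 0.19) and the MCL1 call without any of its 3 wells, with an adjusted p of 0.057 to 0.14. With the mitochondrial reference none of the 3 passed (adjusted p = 0.24, 0.31 and 0.52). With MK-2206 at 1000 nM BCL2L1 read 214, 208 and 226 TPM and was higher by 0.48 ± 0.09 (adjusted p = 0.0044, where 1.2% of all genes rose). In that comparison wells of the same number deviated together. Blocking on the number, which also keeps DMSO replicates 1 to 3 alone, gave 0.38, adjusted p = 0.22. The call was also lost without replicate 1 or 3 (0.47, adjusted p = 0.067, and 0.43, adjusted p = 0.088). At 100 and 10000 nM of MK-2206 no member was called, beside 0.0648% and 3.15% of all genes. Miglitol gave no call in 30 tests of members, with 0.16 as edgeR's lowest adjusted p, and 0% of all genes were called at each of its doses. BCL2A1, though not called, had a positive log2(Fold Change) at each dose of these compounds, the lowest being 0.01 with miglitol at 100 nM. It was 1.46 ± 0.50 with pyrazolanthrone at 10000 nM (edgeR's adjusted p = 0.073). With miglitol at 10000 nM it was 0.97 ± 0.52 (adjusted p = 0.24). With MK-2206 at 100 nM 2 of 3 wells exceeded all 18 DMSO wells in BCL2A1 TPM. Whether the BCL2A1 rise is particular to nilotinib was not tested.

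Over the 18 comparisons with DMSO, MCL1 was called higher in 7 and lower in 3, PMAIP1 higher in 6 and lower in 1, BCL2L1 higher in 3 and lower in 6, and BAX higher in 2 and lower in 3. BCL2 was called lower in 6 and higher in none under edgeR. The ratio of the highest to the lowest group mean TPM was 736 for MCL1, 486 for BCL2A1, 96.4 for BBC3, 32.9 for BCL2, 29.5 for BAK1, 16.9 for PMAIP1, 10.7 for BCL2L11, 6.22 for BCL2L1, 4.3 for BID and 2.93 for BAX.

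The genes around the family were described from 5 lists. At 10000 nM of triptolide 2 of 13 caspases and activators rose and 10 fell, where 32.2% and 39.7% of all genes did, with a median log2(Fold Change) of -1.43: FADD, the adaptor of death receptors, fell by 6.24 ± 0.21, from 34.4 ± 3.35 to 0.27 ± 0.026 TPM. Of 8 enzymes of MCL1 protein turnover 1 rose and 5 fell, FBXW7 by 3.33 ± 0.25 and BTRC by 2.49 ± 0.22, both parts of ubiquitin ligases. Of 7 inhibitors of apoptosis proteins and antagonists 1 rose and 5 fell, BIRC6 by 2.03 ± 0.36 and BIRC3 by 1.98 ± 0.61. Of 10 other family genes 4 rose and 3 fell, among them the BH3-only genes HRK by 1.63 ± 0.23 and BMF, which went from 1.69 ± 0.81 TPM to at most 0.1 TPM. Of 10 genes of the mitochondrial membranes 4 rose and 1 fell under TMM, with VDAC1, a channel of the outer membrane, at 1.03 ± 0.15.

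At 10000 nM of homoharringtonine 4 of 7 inhibitors of apoptosis proteins and antagonists rose and 3 fell, where 36.7% and 37.2% of all genes did, with a median of 1.39: BIRC3, a target of NF-kB, rose by 5.02 ± 0.33, from 1.27 ± 2.07 to 27.9 ± 6.01 TPM, and BIRC6 by 1.49 ± 0.27. Of the MCL1 turnover enzymes 5 of 8 rose and 1 fell, MARCHF5, a ligase of the outer mitochondrial membrane, by 1.70 ± 0.11 upward and FBXW7 by 1.02 ± 0.16 upward. Among caspases and activators 4 rose and 6 fell, with CASP10 at 1.80 ± 0.15 and DFFB, the apoptotic nuclease, at -1.74 ± 0.13. Of the other family genes 4 rose and 6 fell, with BIK, a BH3-only gene, at 2.85 ± 0.23 and BOK at -1.52 ± 0.14. Of the mitochondrial membrane genes 4 rose and 6 fell, with DNM1L, the fission GTPase, at 1.31 ± 0.17 and MFN2, a fusion GTPase, at -1.55 ± 0.08.

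The genes most like a member in mean log2(TPM + 1) over the 19 groups were sought among 12377 protein-coding genes. For MCL1 they were ZNF317 (Pearson r = 0.9952), ZNF7 (r = 0.9931) and DUSP11 (r = 0.9929). For PMAIP1 they were ERN1, a sensor of endoplasmic reticulum stress (r = 0.9766), ZNF160 (r = 0.9756) and the clock gene PER2 (r = 0.9728). For BCL2L1 they were the kinase gene CSK (r = 0.9923), TRIM69 (r = 0.9887) and TOR3A (r = 0.9867). Each r describes 19 means in which the genes share libraries and depth. ZNF317 went from 20.4 TPM in DMSO to 74.4 TPM with homoharringtonine and 0.26 TPM with triptolide at 10000 nM. In the same groups CSK went from 100.35 to 22.6 and 43 TPM. Both genes were picked for likeness to MCL1 and BCL2L1 over these same means, so sharing their order is not a separate result.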

How the data were processed

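Population RNA-seq of 72 U2OS wells was analysed, with groups, doses and replicate numbers from the sample labels. Per the labels the libraries were stranded and poly(A)-selected, and per the study's methods the authors quantified them with RSEM; the submitters' processing notes name GRCh38, HTSeq and DESeq2; versions are not given in the sources used here. The deposited expected counts are RSEM's estimated reads per gene, without normalization by the authors. The deposited TPM and FPKM values were scaled by the authors to transcript length and library size. The deposited gene lengths in bases are RSEM's abundance-weighted means. Symbols, positions and biotypes came from GENCODE 44 and promoters from RefSeq.

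The expected counts, rounded, were fitted with edgeR 4.0.16 under R 4.3.3 (TMM, filterByExpr, glmQLFit and glmQLFTest), 1 fit per compound and dose against the 18 DMSO wells, 1 per dose between triptolide and homoharringtonine, and 1 slope on log10 dose per compound over its 9 wells. A call needed an adjusted p-value (Benjamini-Hochberg over all genes tested) under 0.05. Lengths were fitted with limma 3.58.1 on the log2 scale. Alternatives were DESeq2 1.42.0, library sizes alone, the 13 mitochondrially encoded mRNAs as reference, other filters, left-out wells or shallow libraries, and a replicate block; DMSO replicates 1 to 3 without a block were added after seeing the data. The fits were tested on simulated data with known changes in 200 of 15583 genes, at the depths of DMSO and homoharringtonine wells. Shifts as broad as those with triptolide were not simulated.

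Named genes were the members, up to 2 called genes with the largest change in each list at 10000 nM of triptolide and of homoharringtonine, and the 3 genes most like MCL1, PMAIP1 and BCL2L1. A gene that this rule names is not reported here. Members and lists were chosen with earlier results of these data known. Depth was 0.071 to 68.3 mil counts per well. Wells of the same number deviated together in each pair (correlation over 0.1) in 1 of 21 comparisons, MK-2206 at 1000 nM, a pairing that comes from the data and not from the labels. Of 207 pairs of wells of the same group, none agreed within sampling noise (lowest chi-square per degree of freedom 1.35).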

Additional observations from a re-analysis of the deposited data

Results flagged for a closer look

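Under TMM 4 members were called in opposite directions at different doses of the same compound, and the slope over its 9 wells passed the threshold (edgeR's quasi-likelihood test, Benjamini-Hochberg adjustment). PMAIP1 with triptolide was higher at 100 nM and lower at 10000 nM, with a slope of -1.44 ± 0.13 per 10-fold dose (adjusted p = 2.3e-05), although its rise at 100 nM was not called with the mitochondrially encoded mRNAs as reference. BCL2A1 with homoharringtonine was higher at 100 nM and lower at 1000 and 10000 nM, with a slope of -2.88 ± 0.30 (adjusted p = 5.2e-05). BAK1 with homoharringtonine was higher at 100 nM and lower at the other doses as well, with a slope of -0.75 ± 0.12 (adjusted p = 0.00063), although its calls at 100 and 1000 nM were lost with the mitochondrial reference (0.50, adjusted p = 0.13, and -0.72, adjusted p = 0.07). BCL2L11 with homoharringtonine was lower at 100 nM and higher at 1000 and 10000 nM, with a slope of 0.35 ± 0.07 (adjusted p = 0.002), although with the mitochondrial reference none of these calls was made, the slope included (0.27, adjusted p = 0.14). What sets these courses was not tested.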

How the results depend on the processing

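Counts here are members past both the adjusted p and a log2(Fold Change) beyond 1, or past the adjusted p for trends. With library sizes alone the higher calls went from 1 to 0 for nilotinib 100 nM, 2 to 0 for triptolide 10000 nM, 1 to 0 for triptolide 1000 nM, 2 to 1 for the triptolide minus homoharringtonine comparison at 100 nM, 1 to 0 for the triptolide trend. With the mitochondrially encoded mRNAs as reference the higher calls went from 1 to 2 for nilotinib 100 nM, 2 to 0 for triptolide 10000 nM, 1 to 0 for triptolide 1000 nM, 1 to 0 for triptolide 100 nM, 2 to 0 for the triptolide minus homoharringtonine comparison at 100 nM, 3 to 0 for the triptolide minus homoharringtonine comparison at 1000 nM, 3 to 0 for the triptolide minus homoharringtonine comparison at 10000 nM, 1 to 0 for the triptolide trend, 1 to 0 for the homoharringtonine trend, and the lower calls went from 0 to 2 for nilotinib 10000 nM, 6 to 10 for triptolide 1000 nM, 3 to 9 for triptolide 100 nM, 4 to 8 for the triptolide minus homoharringtonine comparison at 100 nM. With DESeq2 the higher calls went from 1 to 0 for nilotinib 100 nM, 1 to 2 for triptolide 1000 nM. With no filter on low counts the higher calls went from 1 to 0 for nilotinib 100 nM, 2 to 0 for the triptolide minus homoharringtonine comparison at 100 nM, 1 to 2 for the triptolide trend. With at least 10 counts in every well the higher calls went from 1 to 0 for nilotinib 10000 nM, 1 to 0 for nilotinib 1000 nM, 1 to 0 for nilotinib 100 nM, 1 to 0 for triptolide 1000 nM, 1 to 0 for triptolide 100 nM, 2 to 0 for the triptolide minus homoharringtonine comparison at 100 nM, 1 to 0 for the triptolide trend, and the lower calls went from 6 to 3 for triptolide 1000 nM, 3 to 0 for triptolide 100 nM, 4 to 0 for the triptolide minus homoharringtonine comparison at 100 nM, 6 to 0 for the triptolide trend. With the replicate block the higher calls went from 0 to 1 for pyrazolanthrone 10000 nM, 1 to 2 for nilotinib 10000 nM, 1 to 0 for nilotinib 1000 nM, 1 to 0 for nilotinib 100 nM, 0 to 1 for miglitol 10000 nM, 2 to 1 for triptolide 10000 nM, 1 to 2 for triptolide 100 nM, 0 to 1 for MK-2206 10000 nM, 1 to 0 for the triptolide trend, and the lower calls went from 3 to 5 for triptolide 100 nM. With DMSO replicates 1 to 3 alone and no block, chosen after seeing the data, the higher calls went from 0 to 1 for pyrazolanthrone 10000 nM, 1 to 2 for nilotinib 10000 nM, 1 to 0 for nilotinib 1000 nM, 1 to 0 for nilotinib 100 nM, 2 to 1 for triptolide 10000 nM. Leaving out 1 treated well at a time gave 0 to 1 higher calls for nilotinib at 100 nM and at 1000 nM, 1 to 2 for triptolide at 10000 nM, 0 to 2 for the triptolide minus homoharringtonine comparison at 100 nM and 0 to 2 for the triptolide trend. Without the libraries under 10 mil each of the 42 counts that could be made stayed within 1.5 times. The cause of these moves was not tested, except that the strict filter removes members with few counts in a shallow library.

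With the mitochondrial reference the sign changed for BID (1.21 to -1.58, 0.98 to -1.51 and 0.27 to -1.46 with triptolide at 10000, 1000 and 100 nM, 0.01 to -0.71 with nilotinib at 10000 nM), BAX (1.06 to -1.75, 1.06 to -1.40 and 0.33 to -1.24 with triptolide) and BCL2A1 (0.15 to -1.38 with triptolide at 100 nM). In the triptolide minus homoharringtonine comparison it changed at 100 nM for BID (0.16 to -1.5), BAX (1.12 to -0.49), BCL2L11 (0.17 to -1.49) and BCL2L1 (1.20 to -0.43), at 1000 nM for BID (1.75 to -0.67), BAX (1.82 to -0.59), BCL2L1 (1.88 to -0.52) and BCL2 (0.15 to -2.22), and at 10000 nM for BAX (2.28 to -0.30), BCL2L1 (2.00 to -0.59) and BCL2 (0.34 to -2.22). In the triptolide trend it changed for BID (0.42 to -0.06) and BCL2L1 (0.15 to -0.35). BAX with triptolide at 100 nM went from 0.33 to -0.36 with at least 10 counts in every well, and with all wells the length values of PMAIP1 (triptolide 1000 nM) and BCL2L1 (homoharringtonine 10000 nM) went from -0.07 to 0.00 and from -0.09 to 0.02.

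Replicate numbers did not pair wells in the other 20 comparisons. Over all 21 comparisons same-numbered wells had a mean correlation of -0.056 and other wells 0.026. With the replicate block, which keeps DMSO replicates 1 to 3 alone, 23 single values of members lost their call and 2 gained it, among them BCL2A1 with triptolide at 100 nM (1.97, adjusted p = 7.0e-06). Without the libraries under 10 mil 2 lost it and 6 gained it. FPKM in place of TPM left the 10 DMSO levels within 1 SD.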
